A study of Mus musculus with 24 samples.

Results

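Podocyte transcripts were followed through 24 polyadenylated RNA libraries labelled mouse kidney. Members were 7 genes named by symbol, out of 30153 genes in the table: Nphs1, Cd2ap, Magi2, Podxl, Ptpro, Synpo and Wt1. They were matched from Ensembl identifiers, and the rule uses no measured value. Each of 6 groups held 4 animals, and all are labelled as strain C57/BL6. The human gene for angiotensin receptor type 1 is carried as its haplotype I in Hap-I mice and as its haplotype II in Hap-II mice. Western diet is named for 3 groups: adult Hap-I, aged Hap-I and adult Hap-II. The other groups have no diet in the label: adult Hap-I, aged Hap-I, and C57 adults, for which no haplotype is named either. The labels give neither sex nor exact age, nor what drives the human gene in these lines, and its transcript was not analysed here.

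Podocytes are the epithelial cells that wrap the glomerular capillaries. Their interlocking foot processes are joined by the slit diaphragm, a modified cell junction that acts with the basement membrane as the filtration barrier of the kidney. Nephrin, the product of Nphs1, spans the slit and is tied by adaptor proteins to the actin of the foot process, and mutations of several of these genes cause nephrotic syndrome. Some of the same proteins serve as scaffolds or receptors in neurons, where synaptopodin is found in dendritic spines.

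The values are the authors' deposited TPM (each library's transcripts, corrected for length and scaled to a fixed total), which can be compared between genes within a library but keep no read depth. The 16 libraries of the 3 western diet groups and the C57 adults held kidney transcripts, with a summed level of 9 tubule markers between 8184 and 81202 TPM. The 8 Hap-I libraries with no diet in the label did not: the same markers summed to between 42.6 and 160 TPM, and 8 neuron markers to between 4097 and 5140 TPM, against at most 6.79 TPM elsewhere. These 8 are called the neural-marker libraries below and serve as a reference, since they are labelled kidney but held few kidney transcripts. The tubule sums in kidney were mostly Kap, at 7196 to 80749 TPM, so their range describes that gene. In the neural-marker libraries they were mostly Kap (0.432 to 109 TPM) and Calb1 (42.0 to 59.1 TPM). Calb1 averaged 65.9 TPM in the kidney libraries. No other tubule marker exceeded 3.47 TPM in the neural-marker libraries. Within the kidney libraries the groups also differed in ways the labels do not mention. Mitochondrially encoded transcripts made up 15.2% ± 2.13 (SD, n = 4) of TPM in C57 adults and 30.4% ± 4.03 (SD, n = 4) in Hap-I adults on western diet, with 27.7% in aged Hap-I mice and 24.4% in Hap-II adults between them. Mean TPM of 4 Y-linked genes was at most 0.239 in all C57 libraries, and among the 12 western diet libraries it was at most 0.539 in 5 and at least 3.31 in 7. Its group mean was 5.52 in Hap-I adults, 3.13 in aged Hap-I mice and 4.77 in Hap-II adults on western diet.

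The promoters of Magi2 and Ptpro are shown because these members, with Synpo, stood higher in the neural-marker libraries than in any kidney library. The bases directly upstream of each start site are from RefSeq on GRCm38.p6, read 5′ to 3′ on the gene's strand, and capitals mark motif matches. Magi2 has a pair of start sites in that table. The first, at chr5:19226796-19227035 on the plus strand, ends where annotated exon begins.

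Magi2 first start site: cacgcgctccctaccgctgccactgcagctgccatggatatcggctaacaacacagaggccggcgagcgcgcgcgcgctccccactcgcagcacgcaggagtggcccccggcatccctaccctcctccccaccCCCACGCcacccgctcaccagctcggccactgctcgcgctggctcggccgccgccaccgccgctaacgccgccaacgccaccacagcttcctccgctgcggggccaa

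Magi2 second start site: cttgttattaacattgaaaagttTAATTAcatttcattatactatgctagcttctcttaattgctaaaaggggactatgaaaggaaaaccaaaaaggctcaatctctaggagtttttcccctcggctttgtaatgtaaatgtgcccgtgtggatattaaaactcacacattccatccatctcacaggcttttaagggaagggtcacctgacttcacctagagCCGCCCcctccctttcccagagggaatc

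Ptpro: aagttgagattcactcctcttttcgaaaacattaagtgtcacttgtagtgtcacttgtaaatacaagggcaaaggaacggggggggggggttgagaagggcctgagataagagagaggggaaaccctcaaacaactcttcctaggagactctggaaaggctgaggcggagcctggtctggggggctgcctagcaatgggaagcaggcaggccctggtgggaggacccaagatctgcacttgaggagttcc

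The second Magi2 sequence lies at chr5:19907268-19907517 and the Ptpro sequence at chr6:137252049-137252298, both on the plus strand. Motifs were searched on both strands in the 250 bases upstream of each start site: GCGTGGG, a core shared by WT1 and EGR zinc fingers, TAATTA, a homeodomain core bound by LMX1B, the MAF recognition core TGCTGAC, the forkhead core GTAAACA, the TATA box core TATAAA, and the GC box GGGCGG. The first Magi2 sequence held the WT1 and EGR core once, as CCCACGC on the opposite strand, and 4.30% of 32851 promoters held it. The second held TAATTA, present in 4.84% of promoters, and the GC box as CCGCCC, present in 32.7%. The letters of the 6 motifs were not found in the Ptpro window. The windows of Nphs1 and Cd2ap held 250 and 241 bases of annotated exon, so they are not shown or described as upstream sequence. CpG dinucleotides numbered 29 at the first Magi2 start site, 3 at the second and 3 at Ptpro, against a median of 6 over all promoters.

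Nephrin transcripts were present in every kidney library. Nphs1 (ENSMUSG00000006649, GRCm38 chr7:30458315-30487223, plus strand) was at 10.99, 15.1, 16.6 and 12.2 TPM in C57 adults. In Hap-I adults on western diet it was at 7.93, 4.40, 4.09 and 6.24 TPM, in aged Hap-I mice at 11.99, 16.4, 9.36 and 4.94 TPM, and in Hap-II adults at 8.21, 5.17, 4.95 and 7.41 TPM. Both adult western diet groups lay wholly below the C57 libraries, while the aged group spanned nearly the whole range. In the neural-marker libraries Nphs1 ran from 0.900 to 1.97 TPM, below every kidney library.

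The adaptors of the slit were unlike each other. Cd2ap (chr17:42792951-42876665, minus strand) encodes the adaptor that ties nephrin to actin and is made by many cell types. It was at 16.8, 29.2, 29.4 and 29.6 TPM in C57 adults, at 16.03, 14.4, 12.8 and 6.05 TPM in Hap-I adults, at 15.6, 24.0, 14.7 and 12.5 TPM in aged Hap-I mice and at 22.0, 20.3, 11.4 and 14.5 TPM in Hap-II adults on the diet. A single C57 library stood far below the other three, and of the western diet groups only the Hap-I adults lay wholly below it. Magi2 (chr5:19227036-20704792, plus strand) encodes a scaffold that binds nephrin and is also a synaptic scaffold. It reached at most 0.341 TPM in any kidney library and was listed at 0 in 8 of the 16. In the neural-marker libraries it was at 14.99, 20.7, 24.2 and 20.1 TPM in adults and at 26.2, 23.9, 23.9 and 20.5 TPM in aged mice. Magi2 therefore did not pass the filter on level in the kidney libraries. It was not tested there between groups, except in an alternative fit with no filter.

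At the podocyte surface, Podxl was the most abundant of the 7 genes by mean in the kidney libraries, and Ptpro the least abundant that was tested. Podxl (chr6:31519488-31563981, minus strand) encodes podocalyxin, the charged sialoprotein of the foot process surface, which endothelial cells also make. It was at 40.5, 80.9, 72.7 and 66.8 TPM in C57 adults, at 37.9, 18.4, 20.2 and 9.66 TPM in Hap-I adults, at 39.9, 88.8, 43.7 and 21.8 TPM in aged Hap-I mice and at 48.6, 22.1, 12.4 and 30.98 TPM in Hap-II adults on the diet. Every Hap-I adult was below every C57 library, with a small gap at the edge, and the other western diet groups overlapped with C57. Ptpro (chr6:137252319-137463233, plus strand) encodes GLEPP1, a receptor tyrosine phosphatase of the foot process that neurons also make. It was at 1.11, 4.24, 3.43 and 3.14 TPM in C57 adults, at 1.43, 0.744, 0.793 and 0.0818 TPM in Hap-I adults, at 1.13, 5.40, 1.37 and 0.268 TPM in aged Hap-I mice and at 3.19, 0.994, 0.872 and 1.51 TPM in Hap-II adults on the diet. All groups overlapped, and only 10 of 16 kidney libraries reached 1 TPM. In the neural-marker libraries Ptpro ran from 11.8 to 18.4 TPM, above every kidney library.

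Synpo and Wt1 represent the cytoskeleton and the nucleus. Synpo (chr18:60593973-60660142, minus strand) encodes synaptopodin, an actin-associated protein of foot processes. It was at 19.5, 25.1, 28.2 and 22.5 TPM in C57 adults, at 21.2, 11.5, 14.2 and 13.2 TPM in Hap-I adults, at 37.8, 23.4, 20.1 and 24.1 TPM in aged Hap-I mice and at 17.2, 14.9, 11.5 and 17.4 TPM in Hap-II adults on the diet. The Hap-II adults lay wholly below C57, the aged Hap-I mice overlapped with it, and 1 Hap-I adult reached into its range. Wt1 (chr2:105126529-105173616, plus strand) encodes the zinc finger transcription factor that drives podocyte genes. It was at 2.41, 4.43, 5.73 and 4.79 TPM in C57 adults, at 3.65, 1.70, 1.85 and 0.941 TPM in Hap-I adults, at 4.65, 9.92, 2.81 and 0.948 TPM in aged Hap-I mice and at 4.67, 3.45, 0.744 and 2.88 TPM in Hap-II adults on the diet. All kidney groups overlapped, and the neural-marker libraries stayed at or below 0.232 TPM.

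**Figure D1:**
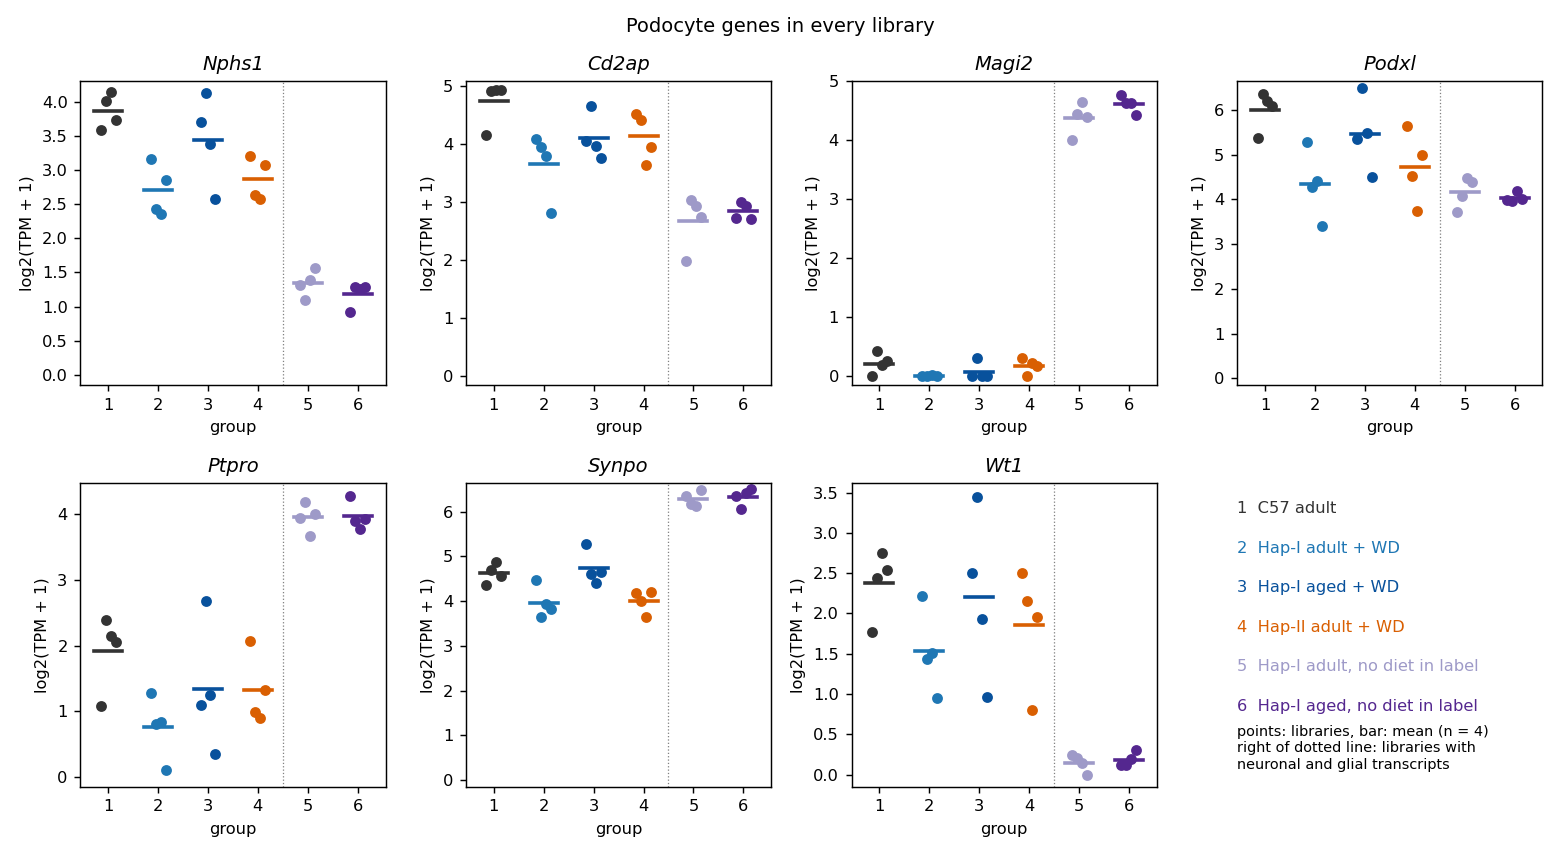
Level of each of the 7 genes as log2(TPM + 1) on the vertical axis in the 6 groups on the horizontal axis, with a point for each library and a bar for the group mean (n = 4). Nphs1, Cd2ap and Podxl in Hap-I adults on western diet lie below all C57 libraries, and Magi2, Ptpro and Synpo are highest in the neural-marker libraries to the right of the dotted line.

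The order of levels within a library was mostly fixed in kidney. Podxl exceeded Synpo in 14 of 16 kidney libraries, Cd2ap exceeded Nphs1 in 15, Nphs1 exceeded Wt1 in 16 and Wt1 exceeded Ptpro in 15. Synpo and Cd2ap had no set order, with Synpo higher in 9 of 16. In the neural-marker libraries the order was another one: Synpo exceeded Magi2 and Magi2 exceeded Podxl in 8 of 8, Podxl and Ptpro had no set order, and Nphs1 and Wt1 came last. By group mean, C57 adults ranked first among the kidney groups for Nphs1, Cd2ap, Podxl and Ptpro, and aged Hap-I mice on western diet for Synpo and Wt1. Neighbouring kidney groups in these orders overlapped, except that C57 adults and the Hap-II adults below them did not overlap for Synpo.

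The 7 genes divided into those whose ranges in the neural-marker libraries lay above all kidney libraries (Magi2, Ptpro, Synpo), those that lay below (Nphs1, Wt1), and those that overlapped (Cd2ap, Podxl). Of the 15200 genes that reached 1 TPM in 4 or more of the 24 libraries, 41.3% lay above all kidney libraries and 11.7% below. Magi2 reached 1 TPM in 0 of 16 kidney libraries and Wt1 in 0 of 8 neural-marker libraries, so each was among these genes only through the libraries where it is high. Among 17 further slit diaphragm genes, 9 lay above all kidney libraries and 8 overlapped. Of the 9, Kirrel2, Kirrel3 and Trpc6 reached 1 TPM in 0 of 16 kidney libraries and Crb2 in 2. They too passed the filter only through the libraries where they are high. Kirrel3, a nephrin relative of the immunoglobulin superfamily, was at 0.145 TPM on average over the kidney libraries and 22.0 TPM in the neural-marker ones. Of 16 cytoskeletal podocyte genes, 6 lay above, 3 below and 7 overlapped, with dendrin (Ddn) at 1.95 and 841 TPM. Of 7 podocyte transcription factors 4 were among the 15200 genes, with 0 above and 1 below, Tcf21, which was at 15.9 and 0.0323 TPM. The same limit holds for Tcf21, at 1 TPM in 0 of 8 neural-marker libraries. It also holds for Anln, 1 of the 6 cytoskeletal genes above, at 1 TPM in 0 of 16 kidney libraries.

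**Figure D2:**
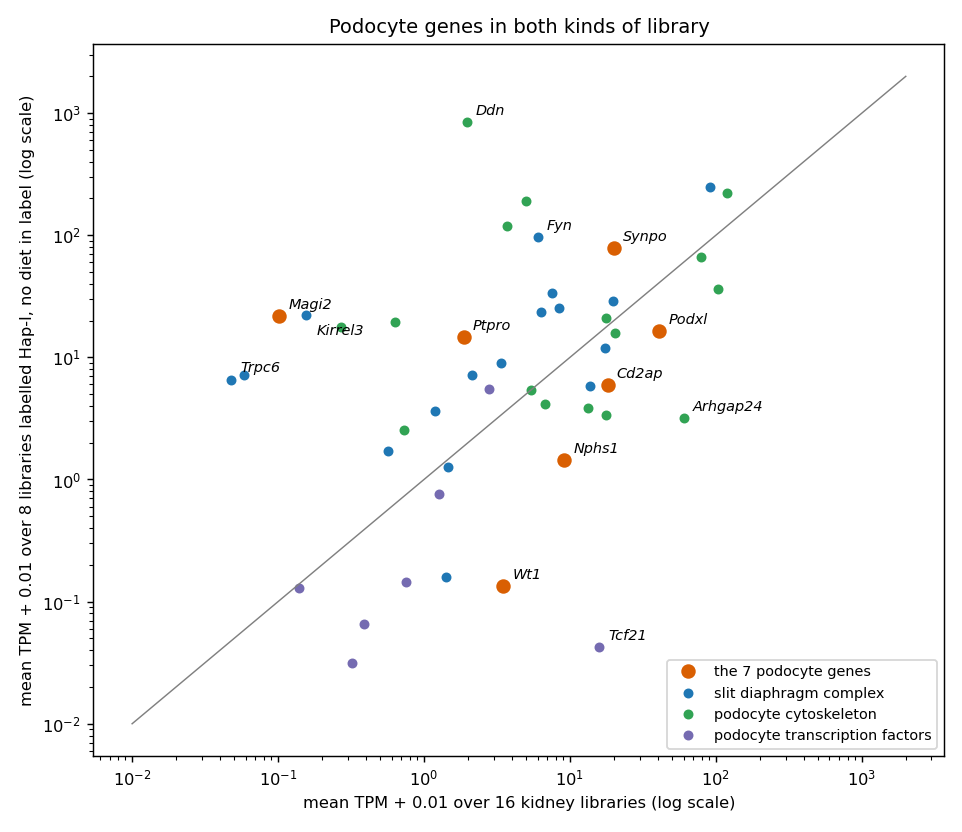
Mean TPM plus 0.01 of podocyte genes over 16 kidney libraries (horizontal, log scale) and over the 8 neural-marker libraries (vertical, log scale), with the line of equal levels. Magi2, Ptpro and Synpo lie above the line, and Nphs1, Wt1, Cd2ap and Podxl below it.

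Levels were tested as log2(TPM + 1) with limma over all genes and Benjamini-Hochberg adjustment at 0.05, with 12923 genes tested over the 16 kidney libraries. The plus 1 understates changes of low genes such as Ptpro. P-values measure the spread between these animals. In whole kidney, fewer podocytes and less RNA per podocyte cannot be told apart.

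No member passed the test for haplotype. On western diet, Hap-I minus Hap-II adults gave 0 of 6 called, with 0 at an unadjusted p under 0.05, where limma called 0.0774% of all genes and 3.26% had such a p. Differences in log2 ran from -0.56 ± 0.43 (SE) for Ptpro to -0.04 ± 0.24 (SE) for Synpo. Their 95% intervals reached from -1.46 to 0.33 for Ptpro and from -0.80 to 0.46 for Nphs1, so a change of either sign remains within the error. All 6 differences were below 0, as was the median over all genes at -0.22, and those of Nphs1 and Synpo turned positive after rescaling (0.08 and 0.23). The members' median was -0.35. With Y-linked level as a covariate it was -0.17, beside a median over all genes of -0.16. In the podocyte, glomerular, tubule and other lists 0 of 92 genes tested were called with limma, and 2 had an unadjusted p under 0.05, a share near that of all genes.

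Aged Hap-I mice on western diet had higher means than adults for all 6 tested members, without passing the test. Means differed 1.88-fold for Nphs1, 2.25-fold for Podxl and 1.75-fold for Synpo. The log2 differences were 0.74 ± 0.30 (SE, limma adjusted p = 0.257), 1.11 ± 0.45 (SE, limma adjusted p = 0.259) and 0.77 ± 0.24 (SE, limma adjusted p = 0.168). Cd2ap differed by 0.45, Ptpro by 0.58 and Wt1 by 0.68, with adjusted p of 0.428, 0.451 and 0.425 in limma. Called were 0 of 6, with 3 at an unadjusted p under 0.05, where 0.0310% of all genes were called and 16.1% had such a p. The median over all genes was itself 0.32, and after median-of-ratios rescaling Nphs1 and Synpo both differed by 0.37 and Podxl by 0.71. The ages also differed in mean Y-linked level, whose part was not tested further. With that level as a covariate the members' median went from 0.71 to 0.52, and the median over all genes was 0.25. Every member overlapped between the ages, where 6.82% of all genes did not. Synpo passed in a fit over all 24 libraries (limma adjusted p = 0.0404), which called 2.91% of all genes. Nphs1, Podxl and Synpo passed with array weights (limma adjusted p = 0.0218, 0.0291 and 0.0273), where 17.0% of all genes were called. Array weights come from the tested values themselves and give less weight to libraries far from their group means. None of 92 list genes was called in limma, while 31 had an unadjusted p under 0.05, among them all 11 glomerular endothelial genes tested. Actn4, the actin crosslinker of foot processes, differed by 0.98 ± 0.39 (SE, limma adjusted p = 0.252).

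Against C57 adults, the members were lower in the western diet adults beside a shift of most genes in the same direction. The groups compared here differ at once in haplotype label, diet label, letter of the sample titles, mitochondrial share and partly Y-linked signal. These cannot be told apart. In Hap-I adults 5 of 6 fell, where limma called 59.7% of all genes lower. Podxl was at 0.330 of its C57 mean, Nphs1 at 0.413, Cd2ap at 0.469, Ptpro at 0.256 and Synpo at 0.631. The log2 changes were -1.66 ± 0.45 for Podxl, -1.16 ± 0.30 for Nphs1, -1.07 ± 0.30 for Cd2ap, -1.16 ± 0.43 for Ptpro and -0.65 ± 0.24 for Synpo (SE), with limma adjusted p between 0.00479 and 0.0273. Wt1 was at 0.469 of its C57 mean and did not pass (log2 change -0.84 ± 0.46, SE, limma adjusted p = 0.114). It passed with array weights (log2 change -1.14, limma adjusted p = 1.46e-05) and with only the compared groups in the fit (limma adjusted p = 0.0281), where 85.1% and 71.1% of all genes were called. Nphs1, Cd2ap and Podxl did not overlap between the groups, nor did 55.3% of all genes in this direction. In Hap-II adults, compared with the same C57 libraries, 3 of 6 fell, where 36.9% of all genes were called lower. Log2 changes were -1.28 ± 0.45 for Podxl, -0.99 ± 0.30 for Nphs1 and -0.62 ± 0.24 for Synpo (SE, limma adjusted p = 0.0356, 0.0195 and 0.0474). Cd2ap, Ptpro and Wt1 were at -0.60, -0.59 and -0.52 and did not pass, with limma adjusted p of 0.114, 0.257 and 0.356. With array weights all 3 passed (limma adjusted p = 0.000193, 0.00270 and 0.0151), where 75.1% of all genes were called. Nphs1 and Synpo did not overlap, nor did 26.7% of all genes in this direction. The Hap-II count was 0 without Hap-II adult 3, C57 adult 2 or C57 adult 3 and 1 without Hap-II adult 2 or 4 or C57 adult 4, and the Hap-I count was 3 without Hap-I adult 4 or C57 adult 2 or 3. With each library left out in turn, limma called between 1803 and 6961 of all genes for Hap-II and between 6042 and 8104 for Hap-I.

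The shift over all genes had a median of -0.80 in log2 for Hap-I and -0.59 for Hap-II adults against C57. After median-of-ratios rescaling, which sets the typical gene equal between libraries, 0 of 6 members were called in either comparison, where limma then called 32.0% and 22.6% of all genes. For Hap-I the rescaled log2 differences were -0.67 for Podxl, -0.62 for Ptpro, -0.25 for Nphs1, -0.12 for Cd2ap, -0.12 for Wt1 and 0.31 for Synpo, which so changed sign. For Hap-II they were -0.56 for Podxl, -0.32 for Nphs1, -0.11 for Ptpro and 0.10, 0.09 and 0.00 for Cd2ap, Synpo and Wt1, each of which changed sign. Quantile normalization kept Podxl as lower in Hap-I adults (log2 change -0.92, limma adjusted p = 0.0494), where 29.6% of all genes were called.

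**Figure D3:**
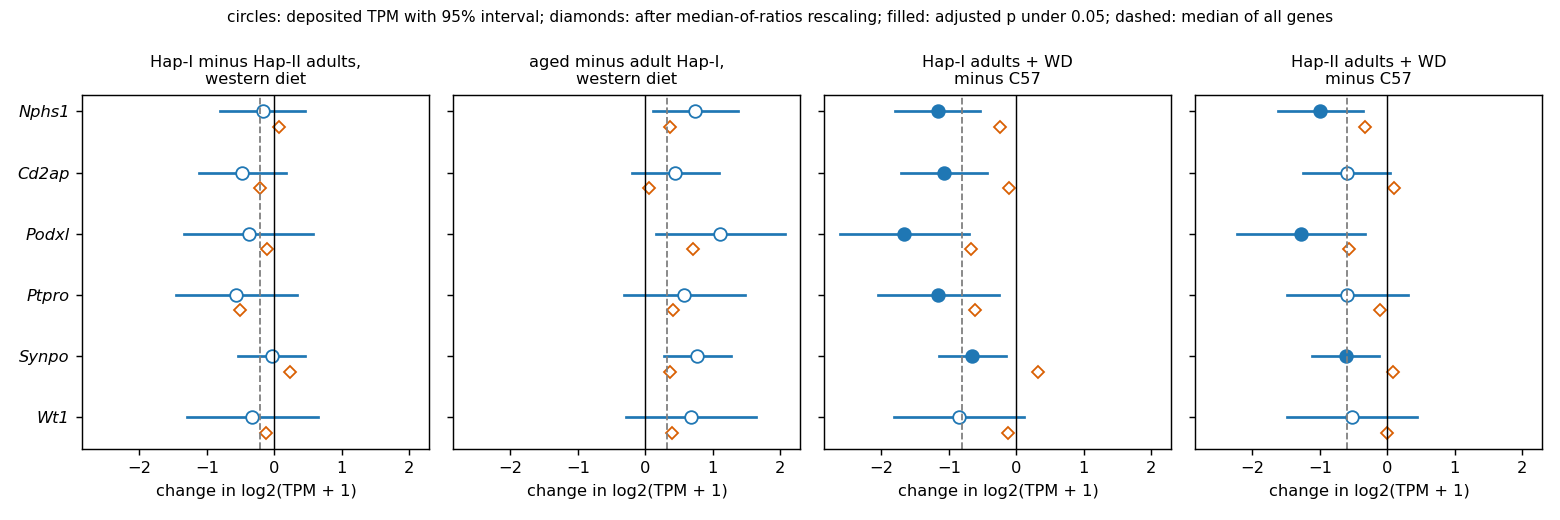
Change in log2(TPM + 1) of the 6 tested genes in 4 comparisons, with circles and 95% intervals for the deposited values and diamonds after median-of-ratios rescaling (filled where the adjusted p is under 0.05, dashed line at the median of all genes). In the panels against C57 the circles of 5 and 3 genes are filled and no diamond is, and in the panels for haplotype and age no symbol is filled.

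Among the 12 western diet libraries, Wt1 and Cd2ap were higher where levels of Y-linked genes were low. Wt1 was between 3.45 and 9.92 TPM in the 5 libraries with little Y-linked signal and between 0.744 and 2.88 TPM in the 7 others. Cd2ap was between 15.6 and 24.0 TPM in the first and between 6.05 and 14.7 TPM in the second. Neither gene overlapped between these libraries, whereas Nphs1 (5.17 to 16.4 and 4.09 to 9.36 TPM), Podxl (22.1 to 88.8 and 9.66 to 43.7 TPM), Ptpro and Synpo did. Among all genes 4.51% lay wholly higher in the first set of libraries. All C57 libraries had little Y-linked signal, and Wt1 in them, at 2.41 to 5.73 TPM, overlapped with the first set. With Y-linked level as a covariate, 0 of 6 members were called against C57 in either comparison in limma, where 25.4% and 14.9% of all genes were. Nphs1 was then at -0.78 (adjusted p = 0.0655) and -0.72 (adjusted p = 0.0860) in limma. The split was drawn from the data at 1 TPM, and its own part in the group differences was not tested further. Without the 2 kidney libraries with the fewest genes above 0, a Hap-I and a Hap-II adult, 3 and 0 of 6 members were called against C57, where 50.4% and 17.1% of all genes were.

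Other podocyte and glomerular genes were lower against C57 as well. Of 13 further slit diaphragm genes tested, 12 fell in Hap-I adults and 9 in Hap-II adults, with medians of -1.30 and -0.95 in log2. These counts and those of the lists below stand beside 59.7% and 36.9% of all genes called lower, and medians over all genes of -0.80 and -0.59. The largest log2 changes in Hap-I adults were those of Iqgap1, a scaffold that binds nephrin (-2.10 ± 0.37, SE), and Fat1, a giant cadherin of the slit (-1.80 ± 0.28, SE), with limma adjusted p of 0.00111 and 0.000732. Kirrel, encoding Neph1, the direct partner of nephrin, changed by -1.36 ± 0.23 (SE, limma adjusted p = 0.000895). Of 15 cytoskeletal genes 14 fell in Hap-I adults and 11 in Hap-II adults, led by Myo1e, a myosin mutated in nephrotic syndrome (-2.05 ± 0.41, SE), and Actn4 (-2.03 ± 0.39, SE), with limma adjusted p of 0.00165 and 0.00141. Of 6 basement membrane genes 6 and 5 fell, among them Lamb2, the laminin chain of the glomerular basement membrane (-1.96 ± 0.24, SE, limma adjusted p = 0.000431 in Hap-I). Transcription factors fell in 2 of 4 in both comparisons, Foxc1 and Foxc2. Lists for neighbouring cells were lower too: 10 of 11 endothelial genes in both comparisons, 9 and 8 of 10 mesangial genes, and 8 and 3 of 9 tubule genes in Hap-I and Hap-II adults. Podocyte surface, adhesion and secreted genes fell in 12 and 10 of 15, parietal epithelial genes in 3 and 2 of 4, and mesothelial genes in 2 of 2 in both. The glial and neuronal genes that passed the filter fell in 1 of 2 and 1 of 1 in both.

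After rescaling, some of these genes were called below C57 although no member was. In Hap-I adults 6 of 13 slit diaphragm genes were called lower and 1 higher, where 14.2% of all genes were called lower. The 6 were Kirrel, Cdh3, Fat1, Iqgap1, Ctnnb1 and Pard3, which encode junction, scaffold and polarity proteins, several of them made by other epithelia too. Cytoskeletal genes were called lower in 5 of 15, Actn4 and Myo1e among them. In Hap-II adults 4 of 13 slit diaphragm genes (Kirrel, Cdh3, Fat1, Iqgap1) and 3 of 15 cytoskeletal genes were called lower, where 9.77% of all genes were. Other lists had such genes too, given for Hap-I and then Hap-II adults. Tubule genes were called lower in 5 and 2 of 9, surface, adhesion and secreted genes in 6 and 3 of 15. Mesangial genes were in 4 and 4 of 10, endothelial genes in 3 and 2 of 11, basement membrane genes in 1 and 2 of 6. Transcription factors were in 1 and 1 of 4, parietal epithelial genes in 1 and 0 of 4, mesothelial genes in 1 and 1 of 2. Glial genes were in 0 and 1 of 2. The part of other cell types in the lower values was not tested.

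**Figure D4:**
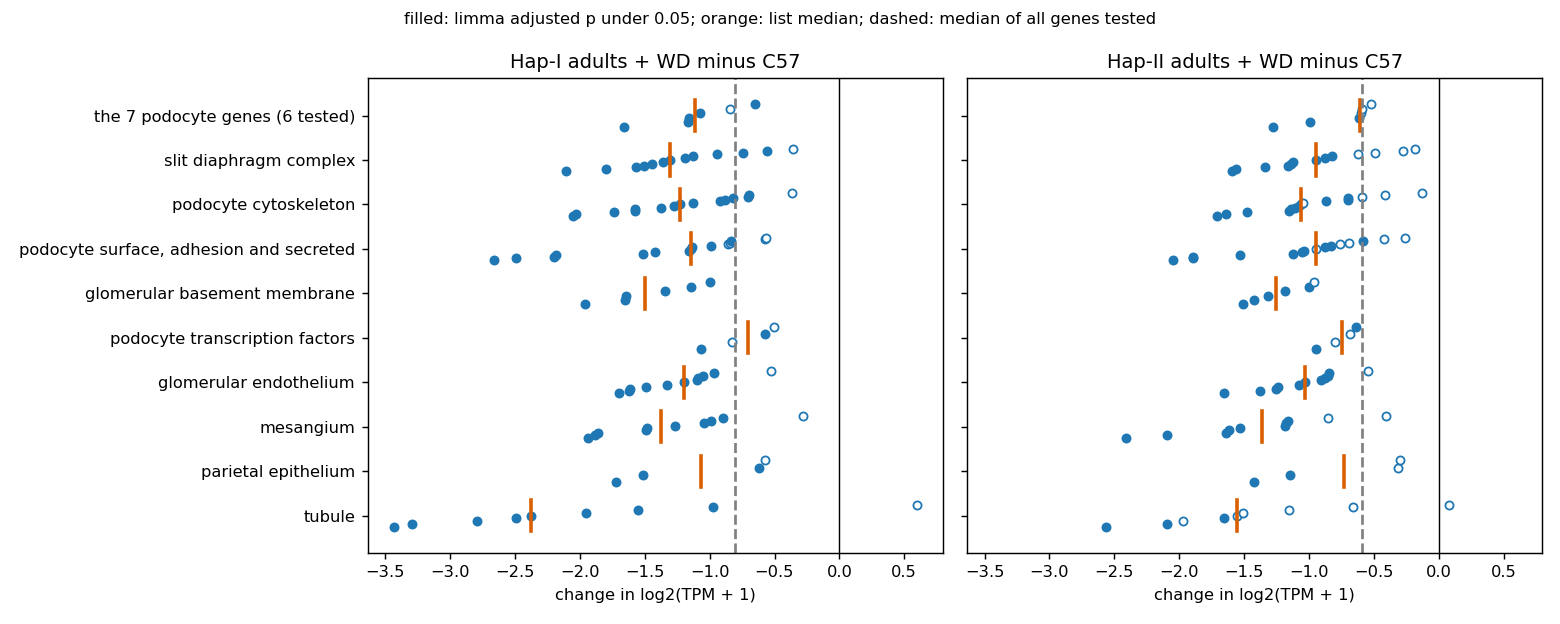
Change in log2(TPM + 1) against C57 adults for each tested gene of 10 lists (points, filled where the limma adjusted p is under 0.05), with the list median in orange and the median of all genes dashed. The members' median of -1.12 in Hap-I adults lies below the median of all genes at -0.80, while in Hap-II adults the medians are -0.61 and -0.59.

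Comparisons with the neural-marker libraries describe tissue content and label together, which cannot be told apart. Limma tested 15200 genes over all 24 libraries. Magi2 and Wt1 entered this fit through 1 kind of library only, so their differences are given as levels above and not counted. Of the 5 other members, Hap-I adults with no diet in the label differed from C57 adults in 5, where 65.4% of the 11319 genes that pass the filter in both kinds of library were called. Ptpro rose by 2.04 ± 0.37 and Synpo by 1.66 ± 0.20 in log2 (SE, limma adjusted p = 4.21e-05 and 1.29e-07). Nphs1 fell by 2.52, Cd2ap by 2.06 and Podxl by 1.83. Western diet against no diet in the label was called for 4 of these 5 members in adults and 5 of 5 in aged Hap-I mice, where 79.4% and 78.2% of the same genes were called. Podxl did not pass in adults (log2 change 0.17, limma adjusted p = 0.693), where the median over all genes was -1.08. It passed after median-of-ratios rescaling (1.42, limma adjusted p = 5.77e-05) and quantile normalization (1.55, limma adjusted p = 2.71e-05). Between the ages in the neural-marker libraries limma called 0 of the same 5 members, with 0 at an unadjusted p under 0.05. Among all 15200 genes 0.428% were called and 1034 had such a p. The difference between the age effects with and without the diet label was called for 0 of these 5 members in limma. Unadjusted limma p were 0.0209 for Nphs1, 0.0376 for Podxl and 0.0190 for Synpo. Of all 15200 genes 4 were called for this difference, and 1523 had an unadjusted p under 0.05.

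Several members varied together from library to library in the deposited values. With group means removed, Nphs1 correlated over the 16 kidney libraries with Wt1 (Pearson r = 0.81, Spearman rho = 0.82), with Ptpro (r = 0.76, rho = 0.68) and with Podxl (r = 0.74, rho = 0.74), by two-sided permutation within groups with adjusted p of 0.0213, 0.0217 and 0.0213 for r and 0.00732, 0.0244 and 0.0189 for rho over 6 relations. Raw permutation p for r were 0.00364, 0.0109 and 0.00711. With pseudocount 0.1 Ptpro no longer passed (r = 0.67, adjusted permutation p = 0.0655). Synpo (r = 0.52, rho = 0.56), Magi2 (r = 0.50, rho = 0.31) and Cd2ap (r = 0.44, rho = 0.53) did not pass, each with an adjusted permutation p of 0.122 for r. The values of Magi2 were 0 in 8 of these 16 libraries and at most 0.341 TPM. Without the 2 libraries farthest from the Nphs1 median, r was 0.74 for Wt1, 0.66 for Ptpro and 0.67 for Podxl. Rescaling took these values to 0.42, 0.22 and 0.36, none past the threshold in the permutation test (adjusted p = 0.490, 0.651 and 0.490).

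Among all 15 pairs of the 6 tested genes r ranged from 0.30 to 0.92 with a median of 0.76, and after rescaling from -0.36 to 0.89 with a median of 0.42. Podxl with Ptpro (0.92 and 0.89 after rescaling) and Podxl with Wt1 (0.92 and 0.85) stayed high on both scales, as a description. The pairs share libraries, and the typical gene among 10698 ranked had a mean r of 0.51 with the members before rescaling and -0.02 after. Genes with the most similar pattern were Dpy19l1 (mean r 0.82 with the members), Pros1, Iqgap2, Oxgr1, Slc12a3, Ptprd, Rcan2 and Golm1. After rescaling the first 3 were Rcan2, Oxgr1 and Pros1, with a mean r of 0.58 each.

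**Figure D5:**
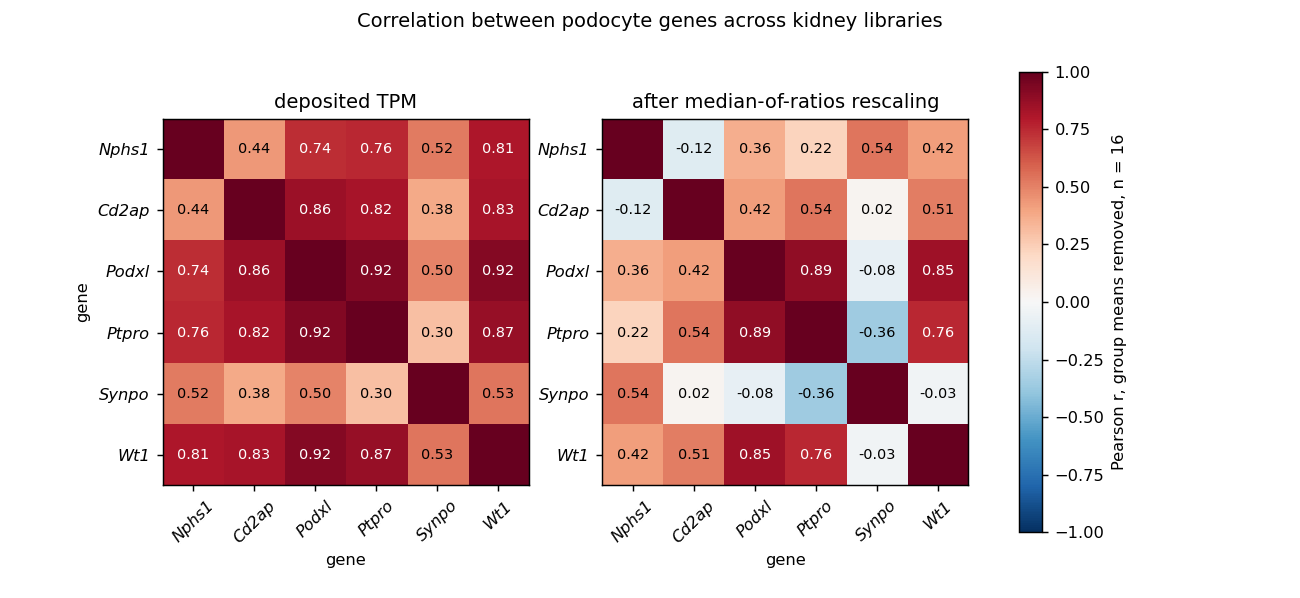
Pearson r between the 6 tested genes over 16 kidney libraries with group means removed, for deposited TPM on the left and after median-of-ratios rescaling on the right (colour from -1 to 1). Podxl, Ptpro and Wt1 keep high values on both sides, while the values of Synpo with Podxl, Ptpro and Wt1 fall to -0.08, -0.36 and -0.03.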

How the data were processed

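Values for 24 libraries are gene-level TPM that the authors deposited in 1 table. Per the labels' protocols, RNA was extracted with a Qiagen kit and made into stranded Illumina TruSeq libraries after poly(A) pull-down. Kallisto, DESeq2 and GRCm38 are listed in the submitters' processing notes, with roles and versions not given in the sources used here. Deposited TPM of a library summed to between 904693 and 944019. Read depth behind each library cannot be had from TPM, so no counting precision is given.

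Identifiers were matched to GENCODE M21 on GRCm38 (29732 of 30153). Genes reaching 1 TPM in 4 or more libraries of a fit were tested as log2(TPM + 1) with limma 3.58.1 in R 4.3.3 (group means, mean-variance trend), over 16 kidney libraries or all 24. The test was checked on simulated data with independent noise for each gene and no shift over all genes. That check does not cover the shift seen against C57. Correlations used 100000 permutations within groups in Python 3.11.15. Same-numbered titles in the western diet groups had correlated deviations between -0.14 and 0.53, so numbers were not taken as pairs.

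Members and 12 lists of 114 genes were chosen with earlier results of these data known, and 2 further list genes are not reported here. Named genes are all members, from each list the 3 with the highest kidney mean or up to 4 called with the largest change, and the 8 most similar in pattern. Kirrel3, Ddn, Tcf21 and the genes called lower after rescaling were named after their values were seen. Alternatives were pseudocount 0.1, other filters, median-of-ratios and quantile scaling, removal of mitochondrial genes, array weights, other libraries in the fit, a Y-linked covariate, a block by number and each library left out. Leaving out the 2 kidney libraries with the fewest genes was chosen after seeing the data.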

Additional observations from a re-analysis of the deposited data

Results flagged for a closer look

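In 4 of 42 sets of 4 libraries, 1 per member and group, a single library stood apart from the others by most of the range. How often chance gives such sets was not worked out for these values. Cd2ap was at 16.8 TPM in a C57 adult and between 29.2 and 29.6 TPM in the others. The same C57 library was also the lowest of its group for Nphs1, Podxl, Ptpro, Synpo and Wt1. Its 7 members summed to 91.3 TPM, against 139 to 159 TPM in the other C57 adults. Nphs1 was at 0.900 TPM in an aged Hap-I library with neural markers and between 1.40 and 1.44 TPM in the others. Magi2 was at 0.0198 TPM in a single Hap-I adult and at 0.240 TPM in a single aged Hap-I mouse on western diet, and listed at 0 in the other libraries of each group. A set with all other values at 0 is always flagged, however small the remaining value.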

How the results depend on the processing

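Of 900 recomputed log2 changes of members, 799 kept their direction and side of the threshold, 57 lost and 12 gained a call, and 32 changed sign. Against C57, members called (5 for Hap-I, 3 for Hap-II) became 0 and 0 under median-of-ratios, 1 and 0 under quantile scaling, 3 and 1 without mitochondrial genes, 0 and 0 with the Y-linked covariate, 3 and 0 without the 2 libraries with the fewest genes. Without mitochondrial genes 47.3% and 28.8% of all genes were called. For Hap-II the members called became 6 with array weights, where 75.1% of all genes were called. They became 1 of 7 with no filter, for which the share over all genes is not given here. For age on the diet they became 3 with array weights and 1 with all 24 libraries. Leaving out each library in turn gave 3 to 5 for Hap-I and 0 to 4 for Hap-II, the latter 0 without Hap-II adult 3, C57 adult 2 or C57 adult 3 and 1 without Hap-II adult 2 or 4 or C57 adult 4, and Hap-I 3 without Hap-I adult 4 or C57 adults 2 or 3. All genes called then ran from 6042 to 8104 for Hap-I and from 1803 to 6961 for Hap-II.

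All genes called for haplotype (10) became 51 with array weights, 4 without the fewest-gene libraries and 4 to 7 with a library left out. For age on the diet (4) they became 2199 with array weights, 2 in the compared groups alone, 443 with all 24 libraries and 2 to 22 with a library left out. For Hap-I against C57 they became 4135, 3822 and 3284 under median-of-ratios, quantile scaling and the Y-linked covariate, and for Hap-II 2923, 2883 and 1926, with 9706 under array weights, 2201 without the fewest-gene libraries and 1803 to 6961 with a library left out. For age in the neural-marker libraries (65) they became 3 with pseudocount 0.1, 262 with no filter, 27 at a filter of 5 TPM, 19 and 32 under median-of-ratios and quantile scaling, 36 without mitochondrial genes, 550 with array weights, 4 in the compared groups alone and 32 to 203 with a library left out. With the title number as a replicate block, 5 genes were called for haplotype and 2 for age, and 0 members in either; 4 of 12 libraries correlated best with their own number.

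Log2 changes that turned sign under median-of-ratios and quantile scaling were, for haplotype, Nphs1 (0.076, 0.071) and Synpo (0.23, 0.20, also 0.065 without mitochondrial genes and 0.040 with the Y-linked covariate); for Hap-I against C57, Synpo (0.31, 0.20) and Wt1 (0.026 under quantile scaling); for Hap-II against C57, Cd2ap and Synpo under median-of-ratios (0.10, 0.086) and Wt1 (0.0030, 0.093, and 0.0040 with the Y-linked covariate). For age in the neural-marker libraries they were Ptpro (-0.12, -0.13, and -0.022 without mitochondrial genes), Synpo (-0.10, -0.057), Wt1 (-0.0099 under quantile scaling) and Cd2ap (-0.0031 with array weights). With a library left out, Synpo ran from -0.21 to 0.071 for haplotype, Podxl from -0.14 to 0.48 for western diet in Hap-I adults, and for age in the neural-marker libraries Cd2ap from -0.063 to 0.29, Ptpro from -0.084 to 0.096, Synpo from -0.0056 to 0.14 and Wt1 from -0.010 to 0.070. The correlation of Nphs1 with Cd2ap became -0.12 and -0.022, and those with Podxl, Ptpro and Wt1 0.36, 0.22 and 0.42 and 0.33, 0.22 and 0.48; with pseudocount 0.1 Ptpro was at 0.67 and lost its call (adjusted permutation p = 0.0655 for r and 0.0821 for rho). The cause of these changes was not tested. Without depth, low levels such as those of Magi2 and Ptpro have no counting error.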
